A study of Homo sapiens with 15 samples.

Results

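The libraries described here are the unexposed controls of a chromium time course, measured as cytosine methylation along the 45S ribosomal DNA unit. They were chosen by title: 6 of the 15 libraries carry control titles, in a first and a second set of 3 libraries each. All of them came from untreated lymphoblastoid cells, human B lymphocytes that Epstein-Barr virus has made to grow without limit as a line, kept in RPMI medium. The other 9 libraries came from the same line after 5 µM hexavalent chromium for 24 hours, sampled at later days, and are not compared here. The labels do not say how the second control set differs from the first, and they tie no replicate to a separate culture. Differences between libraries may therefore be technical.

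The 45S unit is the template that RNA polymerase I transcribes into the precursor of 18S, 5.8S and 28S ribosomal RNA. It is repeated many times in tandem on the short arms of the acrocentric chromosomes, and in most cells a part of the copies is active and a part is silent. Methylation of CpG dinucleotides, above all around the promoter, is known to mark silent copies, so a percentage measured on pooled copies is an average over active and silent ones. Bisulfite treatment changes only unmethylated cytosine, which is then sequenced as T, and the percent methylation of a CpG is the share of C among its C and T reads. Cytosines outside CpG (contexts CHG and CHH, where H is A, C or T) are seldom methylated in such cells, and their unconverted reads serve as a check of the conversion.

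Each of the 6 libraries contained 48430382 to 81054513 C or T calls. A CpG site was used if none of the 6 libraries had fewer than 10 reads there, which gave 995 of the 1311 CpG sites listed in any of them. The median coverage of these sites was between 724 and 1269 reads per library, single sites had as few as 10 reads, and 752 sites had 100 reads or more in every library. Positions are those of the GenBank reference of the human repeat, counted from the transcription start at 1, and the sites ran from -982, in the upstream spacer, to 12931, in the last stretch of 28S. Between -719 and 296, which spans the core promoter, no CpG reached the minimum in all 6 libraries.

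Unexposed ribosomal DNA was mostly at intermediate methylation, with separate stretches near 0 and near complete. Of the 995 sites, 749 (75.3%) had a mean of 20 to under 80 percent, 107 (10.8%) were high at 80 percent or more, 97 (9.75%) were low at 5 to under 20 percent and 42 (4.22%) were near zero at under 5 percent. At some sites many reads were neither C nor T: keeping the 937 sites where at least 80 percent of reads were C or T in every library, an alternative added after seeing the data, left 28 near-zero, 71 low, 731 intermediate and 107 high sites. The upstream spacer held 23 high sites among its 27. The near-zero sites lay in the 28S gene (32), the 5' external transcribed spacer (7) and internal transcribed spacer 2 (3). The low sites lay in the 5' external transcribed spacer (47) and internal transcribed spacer 2 (44), with 3 in 28S, 2 in internal transcribed spacer 1 and 1 in 18S.

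**Figure D1:**
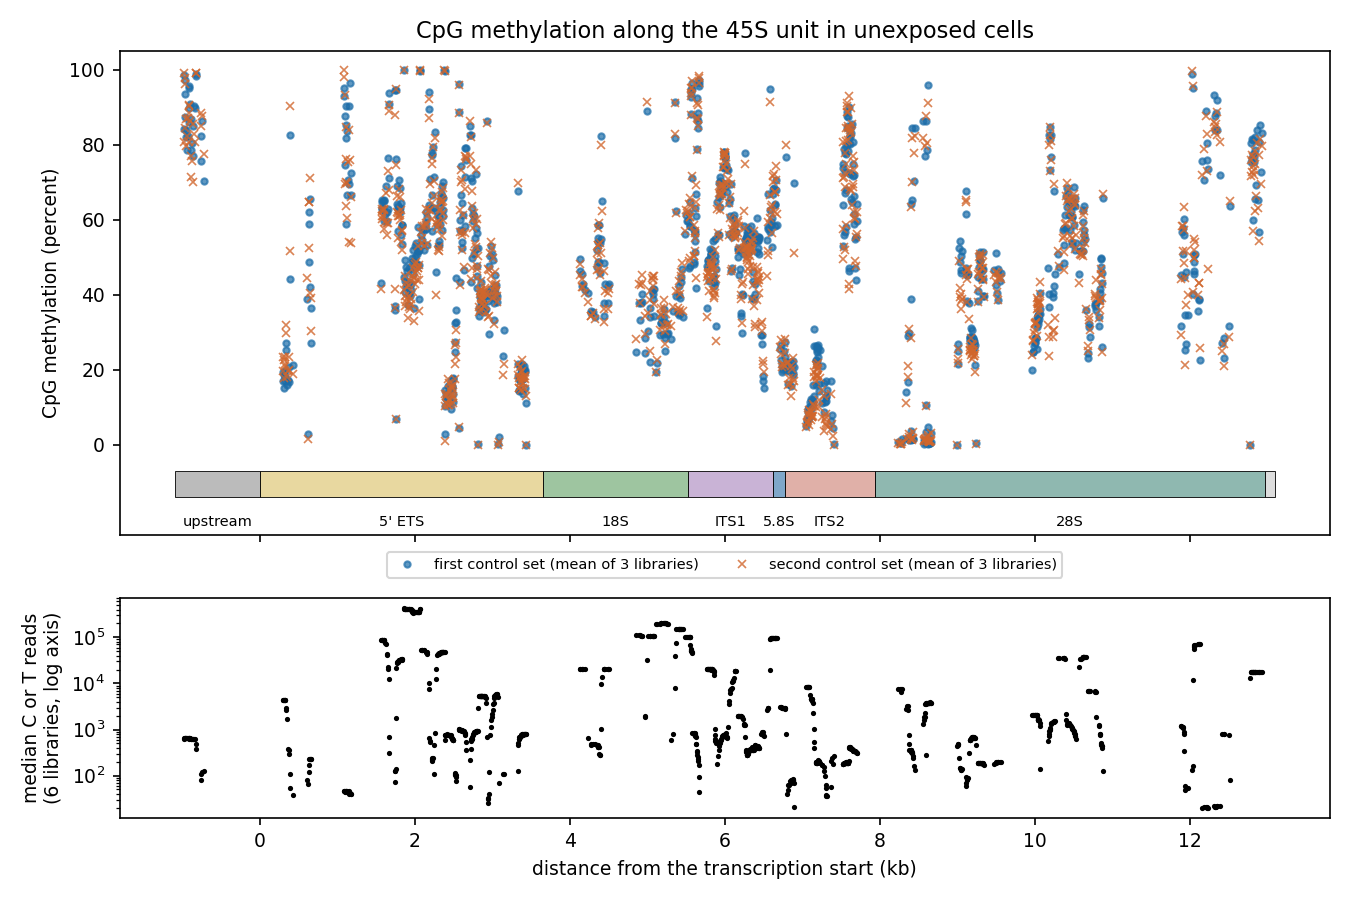
CpG methylation (percent, upper panel) and median read number on a log axis (lower panel) against distance from the transcription start in kb; blue circles are means of the first control set and orange crosses means of the second (3 libraries each), and the bar shows the parts of the unit (ETS and ITS are the external and internal transcribed spacers). The upstream sites sit mostly above 80 percent, near-zero sites gather in the first part of 28S, and the read number changes in blocks along the unit.

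The upstream spacer, which carries enhancer and spacer promoter elements, was the most methylated part. Its mean over 27 sites was 86.4%, 85.3% and 88.8% in the first set and 85.0%, 86.2% and 85.5% in the second, or 86.2% ± 1.38 (SD, n = 6). The sets overlapped, and the second was lower by 1.26 points (two-sided exact permutation p = 0.4). Its single sites ranged from 73.5% at -867 to 98.99% at -826. The stretches -982 to -949, -926 to -904 and -860 to -766 consisted only of high sites in the first set, and 6 of 7, 6 of 6 and 6 of 6 of their sites were high in the second set too.

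The 5' external transcribed spacer, the part of the precursor that is cut away before 18S, held nearly the whole range from unmethylated to fully methylated sites. Its mean over 303 sites was 47.2%, 52.6% and 45.5% in the first set and 50.4%, 44.98% and 46.8% in the second (47.9% ± 2.97, SD, n = 6). The low stretch from 2394 to 2497 had 19 sites at 14.1% ± 3.11 (SD, n = 3) in the first set and 13.5% ± 4.29 in the second, and all 19 were low in the second set as well. The low stretch from 296 to 328, the first tested sites of the transcript, was at 17.8% ± 5.47 in the first set and 21.4% ± 3.67 in the second, where 2 of its 7 sites remained low. The low stretch from 3407 to 3430 was at 17.1% ± 1.301 and 16.3% ± 6.17.

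In the same spacer, 33 sites from 1865 to 2057 had read numbers among the highest of the unit, with medians of 332574 to 410628 reads per site and none under 72539. Their site means lay between 34.8% and 55.5%. Over the run, the first set was at 48.2%, 47.9% and 43.3% and the second at 46.7%, 32.2% and 47.9%. The second replicate of the second set was the lowest library there, and it set the larger spread of its set (42.3% ± 8.78 against 46.5% ± 2.74, SD, n = 3 each). All 33 sites, which share reads, had a lower mean in the second set, against 565 of all 995 sites. At none of the 33 did the sets separate.

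The 18S gene, which encodes the RNA of the small ribosomal subunit, had a mean of 45.2%, 41.5% and 39.7% in the first set and 43.0%, 41.6% and 45.2% in the second over 83 sites (42.7% ± 2.197, SD, n = 6). It was intermediate at 78 of its 83 sites. Over the 6 libraries its lowest site, 5116, was at 19.4% and its highest, 5363, at 91.1%.

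Internal transcribed spacer 1, the removed piece between 18S and 5.8S, was the second most methylated part by the mean over sites, a ranking that depends on how sites are weighted. Its mean over 180 sites was 61.5%, 60.4% and 52.4% in the first set and 59.3%, 58.1% and 53.5% in the second (57.5% ± 3.73, SD, n = 6). It held a pair of high stretches close to its 5' end. From 5561 to 5574, 6 sites were at 93.4% ± 0.521 (SD, n = 3) in the first set and 93.6% ± 0.169 in the second, on at least 24236 reads. From 5644 to 5671, 8 sites were at 90.9% ± 1.88 and 91.6% ± 0.400. All of these sites were high in both sets. Unconverted reads outside CpG were also frequent within 100 bp of both stretches, at 4.90% and 19.9%, and their part in the high values was not tested.

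The 5.8S gene was covered by 17 sites, with means of 43.4%, 45.4% and 38.9% in the first set and 45.4%, 46.0% and 43.1% in the second (43.7% ± 2.63, SD, n = 6). All 17 site means were higher in the second set, by 2.26 points on average, against 428 of all 995 sites. However, the libraries of the sets overlapped in the mean of the gene (exact permutation p = 0.5). At 6 of the 17 sites, which share reads, the second set lay wholly above the first, as it did at 3.82% of all sites. Without a single library the difference ranged from 0.423 to 3.68 points. The gene was not uniform: site 6657 was at 72.5% and site 6741 at 20.1%, and the median site was at 27.3%.

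Internal transcribed spacer 2, the removed piece between 5.8S and 28S, held low stretches followed by a high one, without a steady change along its length. Near its start, 6790 was at 78.4% between 27.9% at 6782 and 21.9% at 6807. Near its end, methylation fell from 91.6% at 7601 to 44.6% at 7606. Its mean over 113 sites was 39.5%, 42.3% and 37.3% in the first set and 39.5%, 36.02% and 37.9% in the second (38.7% ± 2.18, SD, n = 6). The stretch from 7051 to 7145 (18 sites) was low at 9.71% ± 3.803 (SD, n = 3) and 7.56% ± 2.01. The stretch from 7276 to 7391 (11 sites) was low at 12.4% ± 1.10 and 7.16% ± 2.41, on as few as 16 reads per site. The stretch from 7577 to 7589 (5 sites) was high at 85.7% ± 6.11 and 88.6% ± 2.42. Because the deeply read sites of this spacer were the low ones, its mean depends on how sites are weighted: summing reads over the part gave 15.1%, and keeping sites with 100 reads gave 34.0%.

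The 28S gene, which encodes the RNA of the large ribosomal subunit, had a mean of 46.9%, 44.6% and 42.3% in the first set and 47.2%, 41.7% and 42.8% in the second over 272 sites (44.3% ± 2.39, SD, n = 6). Its first tested sites were unmethylated. From 8234 to 8293, 5 sites were at 0.805% ± 0.597 (SD, n = 3) in the first set and 0.375% ± 0.191 in the second, on at least 3345 reads, with 0.0437% unconverted reads outside CpG nearby. At 8265 and 8270, within that stretch, as little as 78.7% and 65.1% of the reads were C or T. From 8629 to 8666, 8 sites were at 0.867% ± 0.128 and 1.16% ± 0.579. Of the 272 sites, 215 were intermediate, and the stretch from 12321 to 12357 was high at 88.2% ± 10.3 and 85.1% ± 13.1, on as few as 10 reads.

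**Figure D2:**
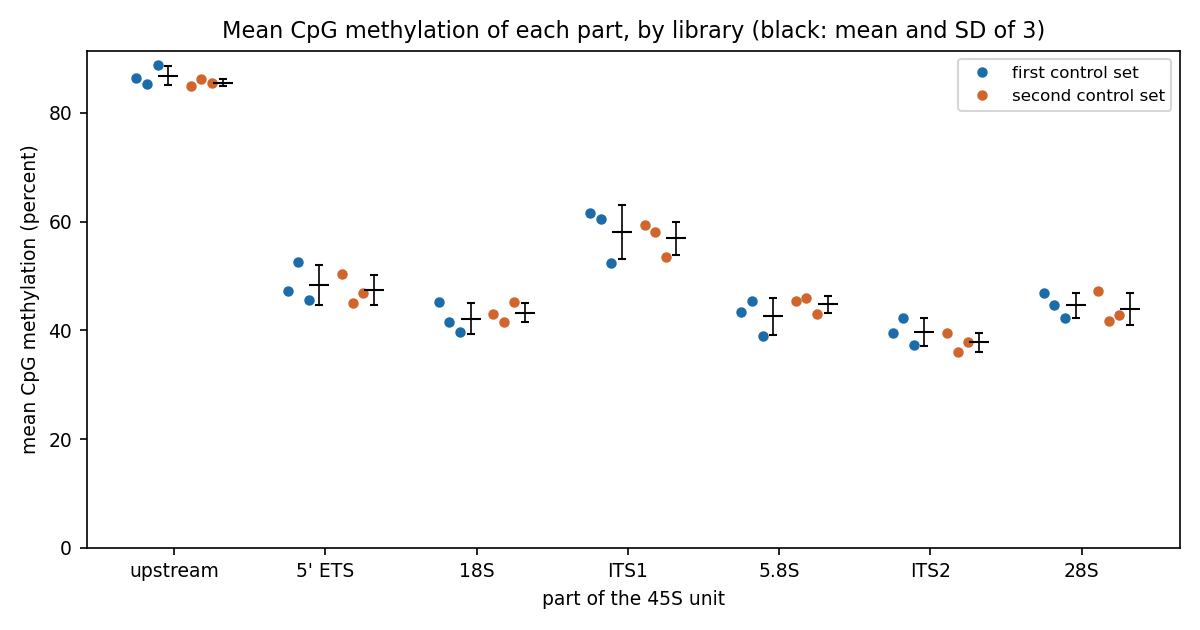
Mean CpG methylation (percent) of each part of the 45S unit, 1 point per library in the order of the replicate numbers, blue for the first control set and orange for the second, with the mean and SD of 3 libraries in black. The upstream spacer is at 86.2% and the other parts between 38.7% and 57.5%, and the points of the sets overlap in every part.

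Methylated and unmethylated CpG sites alternated within a few base pairs at the 5' end of 28S. The 101 bp from 8565 to 8666 held 22 tested sites, chosen as the densest block of near-zero sites. There, 5 sites (8565, 8590, 8601, 8608 and 8624) had means of 78.3% to 93.4%, and 16 sites between and after them were near zero. Averaged over the 5 sites, the first set was at 87.8%, 83.4% and 83.0% and the second at 87.3%, 83.3% and 81.6%. Averaged over the 16 sites, the first set was at 1.09%, 0.883% and 1.88% and the second at 0.901%, 0.782% and 2.44%. No library placed a methylated site below 69.0% or a near-zero site above 9.53%. At least 883 reads stood behind each of these values. The remaining site, 8598, averaged 10.6%, but only 4.48% to 10.6% of its reads in each library were C or T, so its level is uncertain. Of the 21 cytosines outside CpG in the block, 8597, next to that site, was unconverted in 40.3% ± 6.23 (SD, n = 6) of reads, and the other 20 together in 0.111% to 0.538%.

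**Figure D3:**
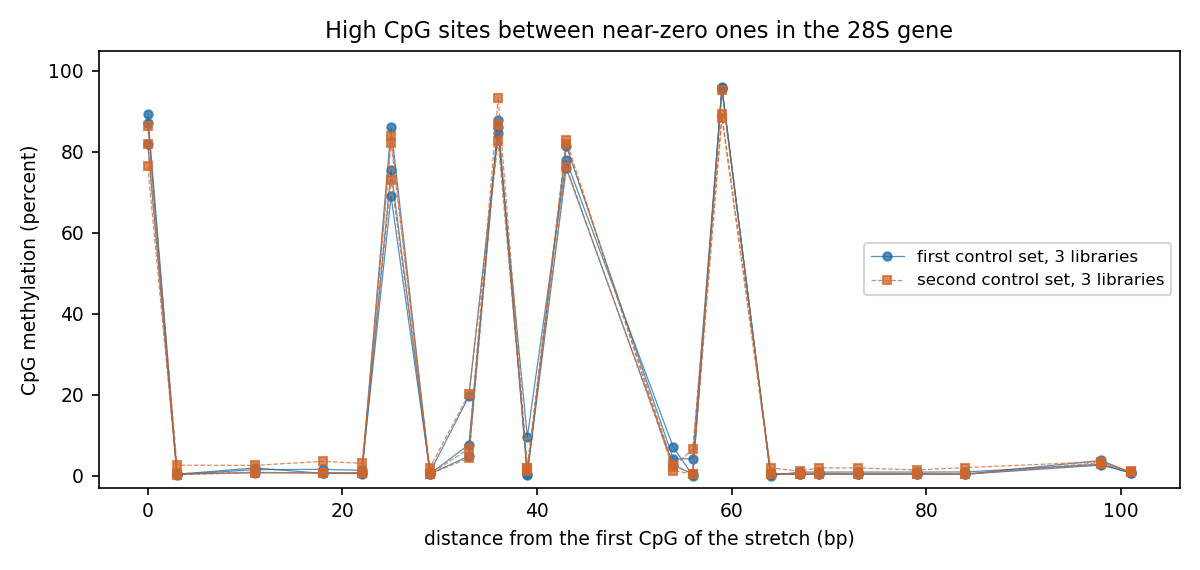
CpG methylation (percent) at the 22 sites of the 28S block against distance in bp from its first CpG, 1 line per library, blue circles for the first control set and orange squares for the second. In all 6 libraries the same 5 sites stand between 69.0% and 96.0% and the 16 near-zero sites stay at or below 9.53%.

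Sharp steps of this kind were counted over the whole unit. Neighbouring sites 2 to 50 bp apart were compared in the first set, and a step was counted where its libraries all moved the same way and their mean differed by at least 30 points. Of 967 neighbouring pairs, 65 (6.72%) were such steps, 34 rises and 31 falls. The second set, which was not used to choose them, kept the direction in all 3 libraries at all 65, and the step was again at least 30 points at 62. 28S held 26 of the steps and the 5' external transcribed spacer 25, followed by internal transcribed spacer 2 with 5, 18S and internal transcribed spacer 1 with 4 each, and 5.8S with 1. Most pairs were alike: the median step over all pairs was 4.40 points.

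Many steps coincided with a change of read number. The median depth of the neighbours differed by more than 1.5 times at 39 of the 65 steps (60%) and at 11.2% of all pairs. The positions of the amplification primers are not given in the sources used here, so cytosines read from a primer could not be set apart, and the part of amplicon ends in these steps was not tested. The other 26 steps lay between neighbours of like depth, and 24 of them were again at least 30 points in the second set.

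The largest steps between sites of like depth were in 28S and the 5' external transcribed spacer. Steps were singled out with at most 3 per region, so some left out are larger than some given here. An example is 8420 to 8423 in 28S (-83.0 points in the mean of the first set). In 28S, methylation rose from 2.02% ± 2.73 (SD, n = 6) at 8621 to 93.4% ± 3.51 at 8624 and fell to 0.611% ± 0.658 at 8629, with median depths of 3810.5, 3819.5 and 3820 reads. Over 3 bp in the same block, 8565 was at 83.9% ± 4.73 and 8568 at 0.732% ± 0.919. In the 5' external transcribed spacer, site 2565 was at 94.9%, 97.0% and 96.9% in the first set and 95.4%, 92.3% and 100% in the second. Its neighbour 2568 was at 4.30%, 7.33% and 2.04% and at 5.48%, 6.82% and 2.33%. Methylation thus fell by 91.7 points over 3 bp in the mean of the first set, and it fell in every library. At 2571, 3 bp further on, methylation was back at 88.4% ± 2.14, a rise of 84.0 points in the first set and 83.4 in the second. Site 2568 was thus a single low site between high ones. In 28S, 12034 was at 99.2% ± 0.813 and 12041, 7 bp away, at 40.3% ± 5.89. Cytosines outside CpG beside this step were also unconverted, in 53.7% ± 5.52 of reads at 12036, 69.1% ± 3.23 at 12037 and 94.3% ± 1.93 at 12044, and their part in the step was not tested. Also in 28S, 12782 was at 0.0243% ± 0.0182 and 12794 at 73.5% ± 6.30, but at 12782 as little as 31.2% of the reads were C or T. In the 5' external transcribed spacer, 390 was at 86.4% ± 7.70 and 423 at 20.01% ± 5.59, on as few as 11 reads.

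Other large steps lay where the read number jumped. Site 1755 was at 6.77% ± 3.48 (SD, n = 6) on a median of 141.5 reads, and 1759, 4 bp away, at 94.6% ± 2.35 on 1811.5 reads. The cytosine at 1758, outside CpG, was unconverted in 87.5% ± 6.22 of reads. Site 2383 was at 99.6% ± 0.242 on 46855 reads, and 2389 at 10.4% ± 3.02 on 752 reads. In 18S, 4973 was at 31.3% ± 3.78 on 1882 reads and 4993 at 90.2% ± 1.75 on 32428.5 reads.

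A few sites lay at either end of the scale in every library. In the 5' external transcribed spacer, 1858, 2063, 2069, 2378 and 2383 were at 99.3% or more in every library, on at least 12874 reads. These 5 sites border runs of other depth or level: 1858 had a median of 436899 reads and its upstream neighbour 1840, at 57.9%, had 33033. At 3439, the last tested CpG of that spacer, 0 of 4515 reads over the 6 libraries were methylated, which allows a share of up to 0.0664% (3 counts of the total). At 8993, the first site of a run in 28S, 0 of 2139 reads were methylated, which allows up to 0.140%. Whether these sites lie within primers was not tested. In all, 9 sites were at or below 1 percent in every library, but several of these levels are uncertain. As little as 7.24% of the reads were C or T at 2821, 7.79% at 3071, 31.2% at 12782 and 55.9% at 7405, besides 8265 and 8270 above.

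Sites close together had similar levels. Over all pairs of tested sites 2 to 5 bp apart (616 pairs), the median absolute difference of the 6-library means was 3.68 points. It was 4.22 points at 6 to 10 bp, 5.29 at 11 to 20 bp, 7.26 at 21 to 50 bp and 11.7 at 51 to 100 bp. Neighbours share reads, so this describes these sites and is not a count of independent observations.

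The landscape of the first control set recurred in the second. Of the 995 sites, 934 (93.9%) fell in the same class in both sets, and 758 in all 6 libraries. All 41 sites that were near zero in the first set were near zero in the second, where they averaged 1.23% ± 0.446 (SD, n = 3). Of the 110 high sites of the first set 92 were high in the second, of its 97 low sites 83 were low, and of its 747 intermediate sites 718 were intermediate. The set means had a median absolute difference of 2.21 points, and 31 sites differed by more than 10 points. Across sites, which are not independent replicates, the set means had a Pearson correlation of 0.986.

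**Figure D4:**
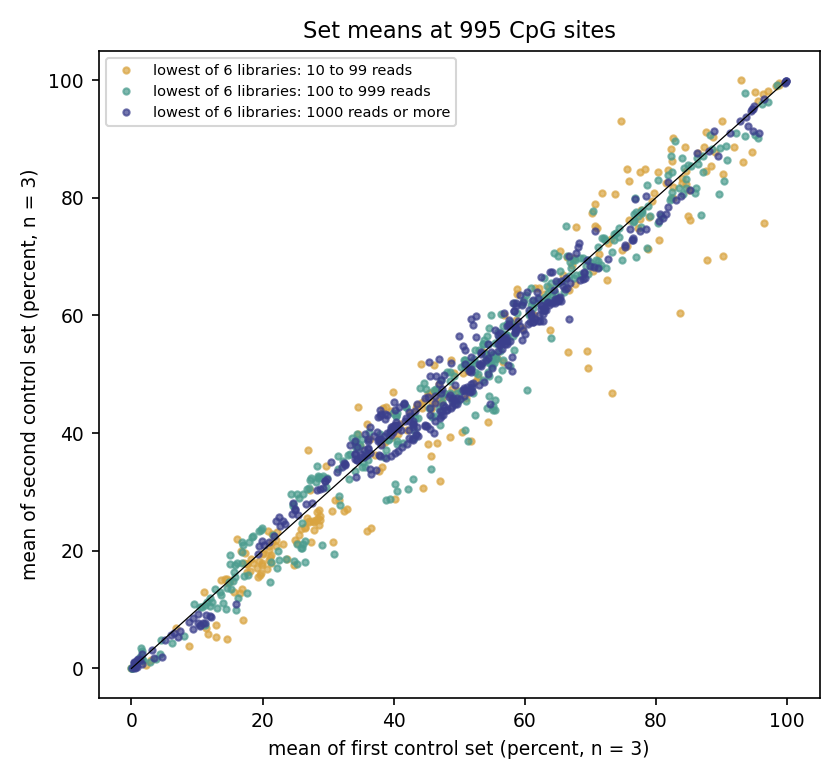
Mean CpG methylation (percent) of the second control set against the first (3 libraries each) at each of the 995 sites, coloured by the lowest read number among the 6 libraries, with the line of equal values. Points follow the line over the whole range, and the ones farthest from it have 10 to 99 reads in their least covered library.

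Pairs of libraries within a set and between sets differed by overlapping amounts. The median absolute difference between libraries was 3.84 to 5.803 points in the 6 pairs within a set and 2.899 to 5.54 points in the 9 pairs between sets. The closest pair was the second replicate of the first set and the first replicate of the second. Per site, the SD over the 6 libraries had a median of 4.72 points, against 1.63 points that read counting alone gives. Depth did not remove this spread: where every library had 10000 reads or more (248 sites), the median SD was 4.29 points and the counting SD 0.209. Where the lowest library had 10 to 99 reads (243 sites), they were 5.51 and 4.02.

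The most variable well-covered sites differed between libraries without regard to the set. In 28S, site 8372 was at 53.2%, 31.3% and 2.50% in the first set and 10.1%, 4.88% and 47.8% in the second, on at least 406 reads. Its neighbour 8374 was at 54.4%, 32.0% and 2.66% and at 10.1%, 33.2% and 49.0%. The order of the libraries was nearly the same at both sites, except in the second replicate of the second set, and at 8374 as little as 14.5% of the reads were C or T. In internal transcribed spacer 2, site 7154 was at 39.2%, 37.2% and 16.4% and at 20.5%, 16.2% and 21.8%. In the 5' external transcribed spacer, sites 2999 and 2909 ranged from 31.1% to 56.0% and from 27.1% to 50.7%. The steadiest intermediate sites were 5128 and 5169 in 18S (21.2% to 23.7% and 28.7% to 32.0%), 10211 and 10696 in 28S (75.1% to 77.9% and 31.9% to 35.0%) and 2198 in the 5' external transcribed spacer (68.3% to 72.1%).

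No CpG site passed the threshold between the control sets. The edgeR quasi-likelihood test called 0 of the 995 sites (0%) at a Benjamini-Hochberg adjusted p under 0.05, with a smallest adjusted p of 0.740, and limma called 0. At an unadjusted p under 0.05, edgeR had 26 sites (2.61%), 2 higher and 24 lower in the second set. In limma there were 30, 2 higher and 28 lower. A quasi-binomial model fitted to each site called 1 (0.101%), -839. It had 52 sites at an unadjusted p under 0.05, with another split: 29 higher and 23 lower in the second set. The unadjusted edgeR count was 55 without the third replicate of the first set and 15 without its first. The 3 libraries of one set lay wholly above or below those of the other at 75 sites (7.54%), 38 higher (3.82%) and 37 lower (3.72%) in the second set. Of the 38 higher sites, 12 lay among the 83 of 18S and 10 among the 272 of 28S. Internal transcribed spacer 1 held 7 among 180 sites and 5.8S held 6 among 17. Of the 37 lower sites, 10 lay in 28S and 9 in internal transcribed spacer 1. The 5' external transcribed spacer held 8 and internal transcribed spacer 2 held 7, while 18S and 5.8S held 0. Neighbouring sites share reads, so these counts are not of independent observations.

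The 3 sites of lowest unadjusted edgeR p in each direction were singled out. Upstream, -839 was at 89.9%, 89.1% and 90.0% in the first set and 80.1%, 81.0% and 80.8% in the second. The sets were separate there, but the site missed the threshold in edgeR (log2 ratio of methylated to unmethylated reads -1.06, adjusted p = 0.740) and passed it in the quasi-binomial model (adjusted p = 0.0291). In the other direction, -963 was at 93.6%, 94.9% and 92.1% and at 97.5%, 97.6% and 98.2% (edgeR adjusted p = 0.740). In 28S, 10179 was at 48.0%, 53.3% and 40% and at 33.7%, 30.9% and 31.1% (edgeR adjusted p = 0.999). Site 8428 was near zero in both sets, at 1.45% and 3.41%, with as little as 53.1% of its reads C or T. Site 1099, at 74.7% in the first set and 93.1% in the second, and site 1166, at 96.4% and 75.8%, lie in the 5' external transcribed spacer and rested on as few as 12 reads.

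None of the 10 regions, made of sites at most 300 bp apart, differed between the sets in limma (0%). The closest was the run from 1086 to 1182 in the 5' external transcribed spacer (16 sites). It was at 76.2%, 84.6% and 79.7% in the first set and 74.8%, 72.7% and 76.4% in the second (log2 ratio -0.71, SE 0.34, limma adjusted p = 0.525). Without the first replicate of the first set it passed the threshold (-1.16, limma adjusted p = 0.0321). Its sites had a median of 45.3 reads and as few as 12. The 7 parts of the unit differed by between -1.90 points (internal transcribed spacer 2) and 2.26 points (5.8S), with two-sided exact permutation p between 0.4 and 0.8 and 0.7 to 0.8 after adjustment. A comparison of 3 libraries with 3 cannot give a p below 0.1, and these p-values measure only the spread between libraries.

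The sets overlapped in their share of unconverted reads outside CpG, and this overlap rested on 1 library. Over 1420 cytosines outside CpG, 1.38%, 1.34% and 0.674% of reads were unconverted in the first set and 1.05%, 1.02% and 0.770% in the second (1.13% ± 0.395 and 0.947% ± 0.155, SD, n = 3 each, two-sided exact permutation p = 0.6). Without the third replicate of the first set, the lowest library, the sets no longer overlapped (difference -0.411 points, exact permutation p = 0.1, the smallest that 2 libraries against 3 allow). Averaged over positions instead of reads, as the CpG levels are, the share was higher, at 4.17%, 4.95% and 2.04% in the first set and 3.83%, 3.10% and 2.58% in the second (exact permutation p = 0.6). The share was lowest in 18S, at 0.337% ± 0.0563 (SD, n = 6), and highest in internal transcribed spacer 1, at 5.53% ± 1.35. In internal transcribed spacer 2 it ranged from 0.527% to 4.25% between libraries. Less than 2 percent of reads were unconverted in all 6 libraries at 671 positions (47.3%), and more than 20 percent at 18 positions. The highest of these were 12044, 1758 and 12037, given above, with -746 upstream (83.7% ± 4.07) and 5579 in internal transcribed spacer 1 (56.8% ± 10.6). Without the 18 positions the libraries had 0.628% to 1.29% unconverted reads.

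**Figure D5:**
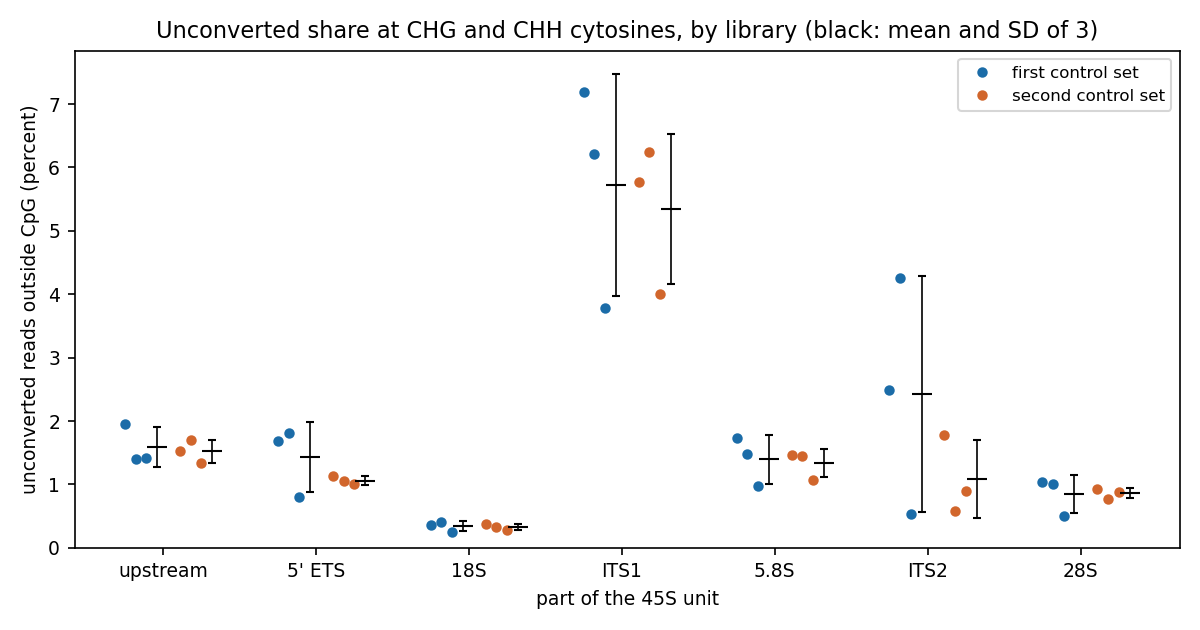
Unconverted reads (percent) at CHG and CHH cytosines in each part of the 45S unit, 1 point per library in the order of the replicate numbers, blue for the first control set and orange for the second, with the mean and SD of 3 libraries in black. Internal transcribed spacer 1 stands highest, at 3.79% to 7.19%, and 18S lowest, at 0.257% to 0.401%.

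Mean CpG methylation and unconverted reads differed between libraries in part together. Over the 995 sites, the mean was 49.7%, 50.5% and 45.5% in the first set and 50.2%, 46.3% and 46.8% in the second, and the lowest library was also the one with the fewest unconverted reads. Removing the unconverted share measured within 100 bp of each site gave 48.2%, 48.6% and 44.8% and 48.8%, 45.1% and 45.8%. The same correction left 45 near-zero, 111 low, 736 intermediate and 103 high sites.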

How the data were processed

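Amplified products of bisulfite-converted genomic DNA were sequenced as paired ends on an Illumina instrument, per the labels' protocols. Trim Galore, methylKit, SAMtools 1.3.1 and BSMAP 2.90 and the builds hg19 and GRCh37 are listed, without their roles, in the submitters' processing notes. Per the file headers, each deposited file lists cytosines with context, a depth, the count of C reads, the count of C or T reads and the deposited methylated fraction; no strand is given. The counts were used as deposited. The lowest listed depth was 10 reads. The layout of the parts came from outside the files and was not checked. The labels' protocol gives fewer biological replicates than the 3 numbered, and does not say which libraries were sequenced together. No library was counted as a copy of another of its set: the chi-square of read numbers over sites, per degree of freedom, was 850 in the closest pair. Pairs of libraries from different sets were not checked in this way.

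Sites were tested with edgeR 4.0.16 in R 4.3.3 on methylated and unmethylated counts, with 1 effect per library and 1 methylation term per set. Regions (sites at most 300 bp apart) were tested with limma 3.58.1 on the mean log2((methylated + 0.5)/(unmethylated + 0.5)). Parts and conversion were compared by exact permutation over 20 assignments, in Python 3.11.15 with SciPy 1.17.1. P-values were adjusted by Benjamini-Hochberg and called below 0.05. The edgeR and limma tests of sites were also run on simulated data. There, sites were drawn independently and with a common spread, whereas the real sites share reads, so this run cannot speak to shared reads.

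Stretches are runs of at least 5 sites of 1 class in the first set. Named sites were those of lowest p in each direction (3), without a limit per region. With at most 2 per region, sites of highest and lowest mean (5) and of largest and smallest SD (5) were also named. The extremes of each part, the 10 largest steps (at most 3 per region) and the 5 highest cytosines outside CpG were added to these. Fixed sites, the run between 1858 and 2063 and the 28S block were added after their values were seen. All members and lists were chosen with earlier results of these data known. Alternatives were other coverage minimums, tests, weights, classes and thresholds, a minimum share of C or T reads (added after seeing the data), the replicate block and leaving out each library. Reads lack molecular identifiers, so counting errors and limits cover counting only.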

Additional observations from a re-analysis of the deposited data

Results flagged for a closer look

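In 106 sets of 6 library values examined, 15 had 1 library far from the other 5 for the range of the set; chance flags about 1 in 20 groups, and several of these sets share sites. No explanation was tested for any of them. The upstream spacer, which is also the first region, was at 88.782% in the third replicate of the first set (median of 6 libraries 85.8%). The run from 1865 to 2057 in the 5' external transcribed spacer was at 32.167% in the second replicate of the second set (median 47.3%), and there 33 neighbouring sites share reads. In internal transcribed spacer 1, the second replicate of the first set was at 92.811% over 5561 to 5574 (median 93.6%), at 88.761% over 5644 to 5671 (median 91.7%) and at 95.161% at site 5667 (median 97.9%). Site 6508 of the same spacer was at 32.911% in the second replicate of the second set (median 14.9%).

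Several flagged values were small departures of near-zero sites. In 28S, the third replicate of the second set was at 1.8287% over 8629 to 8666 (median 0.851%), at 2.5961% at site 8568 (median 0.380%) and at 1.9137% at site 8629 (median 0.431%). The same library was the lowest at site 12794, at 61.722% (median 74.0%). Site 8265 was at 0.89339% in the second replicate of the first set (median 0.221%). Site 12782 was at 0.060533% in the first replicate of that set (median 0.0184%), on 3304 reads, so very few methylated reads make this value. The third replicate of the first set was at 0.25974% at 3071 (median 0.0160%), on 385 reads, and at 0.57143% at 7405, on 175 reads. At these depths, a single methylated read gives each of these shares. At 7405, 0 of 1398 reads were methylated in the other 5 libraries, which allows a share of up to 0.215%.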

How the results depend on the processing

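For the main counts and comparisons, 107 alternative values were taken as the same as the main result and 18 moved. For single sites, regions and parts, 260 were the same, 25 reversed in sign, 6 moved and 2 passed a threshold that the main value missed. Counts were taken as the same within 1.5 times the main count, and means and median SDs within a spread. Differences were taken as the same if they kept their sign and their side of the threshold. The quasi-binomial model called 1 site. At 100 reads, 58 low and 64 high sites remained of fewer sites tested, and 40 steps were found, 38 of them as large in the second set. A step of 20 points gave 112 (98 as large), 40 points left 41 as large, and neighbours within 1.5 times in depth, an alternative added after seeing the data, gave 26 (24 as large). Requiring C or T in at least 80 percent of reads in every library (also added) left 28 near-zero and 71 low sites and 56 steps (53 as large). The median SD per site was 4.52 at 30 reads, 4.40 at 100 reads, 4.16 in the second set alone and 5.01 at sites of 20 to under 80 percent (also added). Summing reads turned the sign of regions 6 (0.10), 7 (0.0554), 8 (0.0811) and 9 (-0.0138, and -0.0010 at 30 reads; log2 ratios) and of internal transcribed spacer 1 (0.0280 points); none of these passed a threshold in any alternative, and the cause was not tested. Summed reads moved the means of 18S to 37.3%, 28S to 51.8%, the 5' external transcribed spacer to 51.2% and 5.8S to 65.0%, since a few deep sites then weigh most.

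Leaving out each library in turn called 0 to 1 regions and gave a median SD of 4.35 to 4.81. The log2 ratio of region 1 then ranged from -0.24 to 0.0725, of region 4 from -0.21 to 0.0147, of region 5 from -0.21 to 0.10, of region 7 from -0.43 to 0.30, of region 9 from -0.12 to 0.16 and of region 10 from -0.33 to 0.28. Differences ranged from -0.104 to 2.64 points in 18S, -2.35 to 0.455 in 28S, -2.52 to 1.06 in the 5' external transcribed spacer, -4.00 to 0.565 in internal transcribed spacer 1, 0.423 to 3.68 in 5.8S, -3.09 to -0.604 in internal transcribed spacer 2 and -2.02 to -0.277 upstream. The unconverted share differed by -0.411 to -0.0598 points. Same-numbered libraries of the sets had correlations of their deviations of -0.189, -0.0505 and 0.156, so the numbers were not taken as pairs. With the replicate block, edgeR called 0 sites (30 at an unadjusted p under 0.05), limma 0 regions (smallest adjusted p 0.523) and the sign-flip test 0 parts (it cannot go below 0.25), and the block changed no call.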

Other observations

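Counting each site in the class it had over all 6 libraries, the unconverted share outside CpG within 100 bp was under 2 percent at 18 of 42 near-zero, 70 of 97 low, 385 of 749 intermediate and 60 of 107 high sites. The median of this local share was 2.57% around near-zero sites and 1.22% around high sites. Of the near-zero sites, 16 lay in the 28S block from 8565 to 8666, where each had the same local share of 2.60%. That share rested on the cytosine at 8597. The other 20 cytosines outside CpG in the block were together unconverted in 0.111% to 0.538% of reads. The median SD per site over the 6 libraries was 0.833 points for near-zero sites, 3.999 for low, 5.01 for intermediate and 3.79 for high sites.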
